A study of Mus musculus with 15 samples.

Results

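The 10 neuropeptide genes *Sst*, *Npy*, *Cort*, *Tac1*, *Penk*, *Pdyn*, *Cck*, *Vip*, *Crh* and *Nts* were chosen by name as peptides of cortical interneurons and were followed in sorted cells of the medial ganglionic eminence (MGE) lineage. The *Lhx6* table lists 26835 genes and 8 of the 10 peptide genes, with *Vip* and *Nts* not listed. The *Mtg8* table lists 25714 genes and also 8 of the 10, with *Vip* and *Crh* not listed. Every gene listed has at least 2 reads over the libraries of its table. Of these genes 6 in each table, *Sst*, *Npy*, *Cort*, *Tac1*, *Penk* and *Cck*, had a mean of at least 10 normalized counts and entered the test across all genes. A normalized count is the number of reads on a gene divided by a factor for the size of its library.

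The study asked how the transcription factor LHX6 and the co-regulator MTG8, the product of *Runx1t1*, shape interneurons born in the MGE. Cortices of single embryonic day 14.5 embryos of mixed C57BL6/CBA background were dissociated, YFP-positive cells were sorted, and each of the 15 RNA-seq libraries came from 1 embryo of either sex. The comparisons were 4 *Lhx6*+/+ controls with 5 *Lhx6*-/- mutants, and 3 *Mtg8*+/+ controls with 3 *Mtg8*-/- mutants, described in the study's methods as littermates, each in a table that was normalized alone. All embryos, controls included, carried the transgene Nkx2-1-Cre and the reporter R26R-YFP fl/fl. The Cre follows *Nkx2-1*, so YFP marks cells whose precursors expressed that gene, and both mutations were germline loss-of-function alleles, the *Mtg8* one with LacZ inserted, so every cell of a mutant embryo carried the allele.

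The libraries held 12218422 to 22053032 reads on genes. *Lhx6* had 5812 to 8441 normalized counts in its controls and 236 to 495 in its mutants. *Runx1t1* had 7938 to 10264.5 normalized counts in *Mtg8* controls and 12249.8 to 13934 in the mutants, so it was not lower there, and these are called the libraries labelled *Mtg8* mutant. The exons behind these reads are not known from a count per gene. The summed normalized counts of 15 MGE interneuron markers were 38584 to 50929.9 in *Lhx6* controls and 65243 to 65762 in *Mtg8* controls. Markers of cortical pyramidal neurons and their precursors were also present, with summed normalized counts of 17052 to 22584 in *Lhx6* controls and 5882 to 14354 in *Mtg8* controls. Library names come in a longer and a shorter form. The longer ones begin with numbers that could be read as a date, which no label states. They are called dated here and the others undated, for the form of the name alone. All *Lhx6* controls and mutant 6 are undated, and *Lhx6* mutants 1, 2, 3 and 5 are dated. Name style and genotype can thus be told apart in that table through mutant 6 alone. Mutant 6 is also the one *Lhx6* mutant whose library name starts like those of controls (1 and 2), and mutants 2 and 5 share a start with each other. In the *Mtg8* table controls 1 and 2 and labelled mutant 2 are dated, and their names share a start across genotypes. Control 4 and labelled mutants 3 and 4 of that table are undated. What the names stand for is not given in the sources used here.

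Neuropeptides are cut from larger precursor proteins in the secretory pathway, stored in dense-core vesicles and released to act on G protein-coupled receptors, more slowly and more widely than the fast transmitter GABA. Somatostatin and neuropeptide Y mark classes of cortical interneurons of MGE origin and damp the activity of their targets. Vasoactive intestinal peptide marks interneurons that arise mainly in the caudal ganglionic eminence (CGE), and enkephalin, dynorphin and substance P, from *Penk*, *Pdyn* and *Tac1*, are also classical peptides of striatal projection neurons.

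The upstream sequences of 4 genes are shown because all mutant libraries lay below all controls for each of them in the *Lhx6* table. They are the 250 bases before the RefSeq start of each gene on GRCm38.p6, written 5′ to 3′ on the gene's own strand, and 8 of the 10 genes had such a sequence in the table used, *Penk* and *Crh* not. Capitals mark 3 motifs that were searched on both strands. TGACGTCA, the cAMP response element, occurs in 1.55% of 32851 mouse promoter windows of that length, its core TGACG, which reads CGTCA on the other strand and is part of the full element, in 17.8%, and the homeodomain core TAATTA in 4.84%. *Sst* (chr16:23890845-23891094, minus strand) holds the full element 48 to 41 bases before the RefSeq start, *Npy* (chr6:49822460-49822709, plus strand) holds none of these letters, *Cort* (chr4:149126764-149127013, minus strand) holds TAATTA at 85 to 80 and CGTCA at 18 to 14 bases, and *Cck* (chr9:121495695-121495944, minus strand) holds CGTCA at 47 to 43 bases.
Sst: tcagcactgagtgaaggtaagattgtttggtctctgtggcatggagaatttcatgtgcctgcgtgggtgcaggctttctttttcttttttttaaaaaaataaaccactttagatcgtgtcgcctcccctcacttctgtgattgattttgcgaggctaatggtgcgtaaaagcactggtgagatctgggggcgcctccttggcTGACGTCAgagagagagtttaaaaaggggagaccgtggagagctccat
Npy: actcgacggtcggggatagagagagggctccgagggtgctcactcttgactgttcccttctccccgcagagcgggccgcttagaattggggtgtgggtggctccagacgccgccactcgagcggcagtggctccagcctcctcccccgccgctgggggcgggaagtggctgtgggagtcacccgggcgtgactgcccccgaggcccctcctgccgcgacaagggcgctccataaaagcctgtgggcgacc
Cort: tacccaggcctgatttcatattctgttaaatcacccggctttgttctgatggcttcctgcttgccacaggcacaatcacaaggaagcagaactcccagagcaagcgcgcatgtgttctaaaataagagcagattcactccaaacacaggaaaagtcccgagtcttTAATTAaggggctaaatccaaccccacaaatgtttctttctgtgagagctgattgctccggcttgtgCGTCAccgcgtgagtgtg
Cck: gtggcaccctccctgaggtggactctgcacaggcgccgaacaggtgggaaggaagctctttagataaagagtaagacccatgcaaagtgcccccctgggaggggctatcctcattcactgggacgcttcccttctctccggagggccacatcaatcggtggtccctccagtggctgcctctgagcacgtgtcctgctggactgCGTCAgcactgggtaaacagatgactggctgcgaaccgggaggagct
The gene model of *Sst* in the tables begins 114 bases upstream of the RefSeq start, so the *Sst* element falls inside that model. A match is a run of letters and no measurement of binding. Among the other sequences, *Tac1* holds TAATTA at 100 to 95 bases and CGTCA at 197 to 193 and 43 to 39 bases, *Vip* holds TGACG at 79 to 75 bases, *Nts* holds CGTCA at 166 to 162 bases, and neither start of *Pdyn* has a match.

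In controls, *Sst* and *Npy* supplied nearly all of the peptide RNA. Per kilobase of exon, *Sst* had a level of 15949 ± 1191 normalized counts (SD, n = 4) in *Lhx6* controls and *Npy* one of 8082 ± 367 (SD, n = 4). Their joint share of the summed levels of all listed peptide genes was 98.2% ± 0.166 (SD, n = 4) there and 99.4% ± 0.0725 (SD, n = 3) in *Mtg8* controls. *Cck*, which encodes cholecystokinin, came next, with a level per kilobase of 343 ± 9.96 (SD, n = 4), followed by *Cort* at 59.8 ± 27.0, *Tac1* at 21.8 ± 8.87, *Penk* at 8.84 ± 4.71, *Crh* at 3.20 ± 4.05 and *Pdyn* at 1.39 ± 2.16. The ranges of neighbours in this order did not overlap from *Sst* down to *Tac1*, while *Tac1* and *Penk*, *Penk* and *Crh*, and *Crh* and *Pdyn* overlapped. In *Mtg8* controls the levels per kilobase were 23156 ± 2886 for *Sst*, 9679 ± 1180 for *Npy*, 131 ± 33.7 for *Cck*, 30.6 ± 8.55 for *Tac1*, 18.1 ± 2.11 for *Cort*, 8.43 ± 1.62 for *Penk*, 1.39 ± 1.78 for *Pdyn* and 0.261 ± 0.453 for *Nts* (SD, n = 3), and there *Pdyn* and *Nts* were the one pair of neighbours that overlapped. *Tac1* and *Cort* thus stand in opposite order in the controls of the 2 tables. As a share of each library's reads (RPM), *Npy* stood at 301 ± 9.43 in *Lhx6* controls and 293 ± 28.8 in *Mtg8* controls, *Cck* at 29.5 ± 0.558 and 9.21 ± 2.60, and *Cort* at 2.68 ± 1.25 and 0.658 ± 0.0875 (SD, n = 4 and n = 3). These control values of separate tables were not tested against each other.

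**Figure D1:**
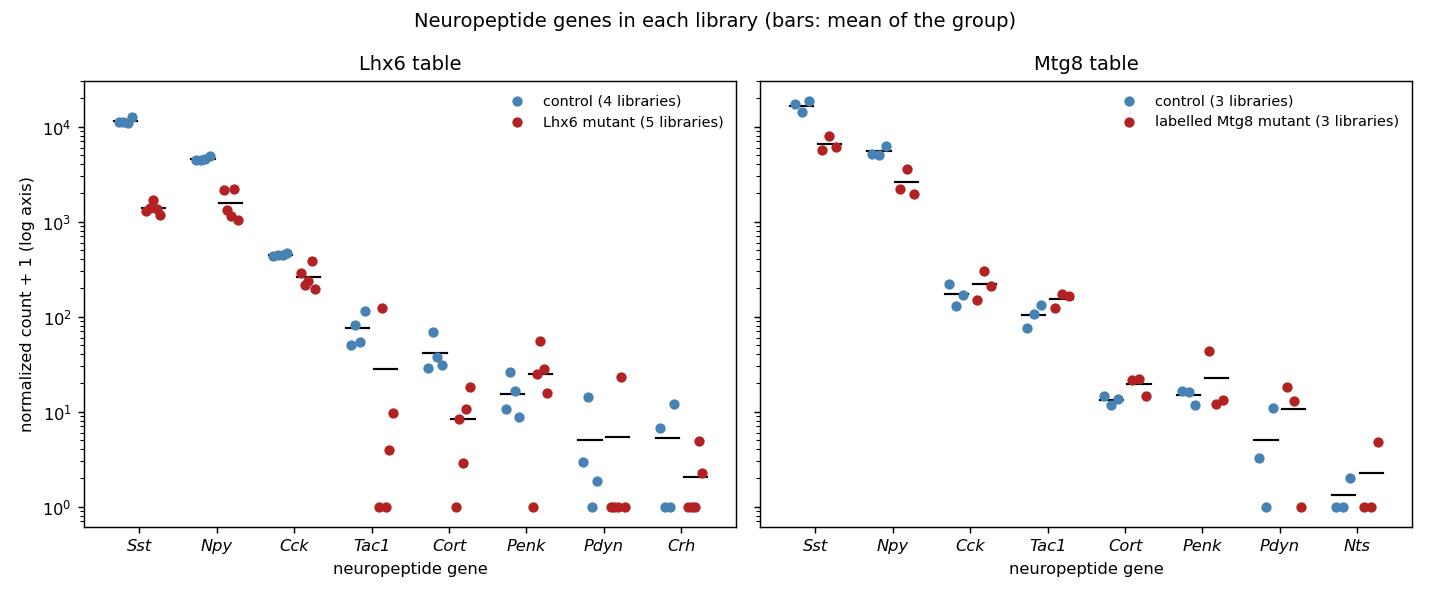
Each point is 1 library, the vertical axis is the normalized count plus 1 on a log axis, blue points are controls, red points are mutants and bars are group means, with the *Lhx6* table on the left (4 controls, 5 mutants) and the *Mtg8* table on the right (3 controls, 3 labelled mutants). *Sst* and *Npy* sit above every other peptide gene in every library, with the mutants below the controls in both tables, and the genes from *Pdyn* on are at or near 0 in several libraries.

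*Sst* and *Npy* were lower in *Lhx6* mutants, and *Sst* by more than *Npy*. *Sst*, the precursor of somatostatin (ENSMUSG00000004366.4, chr16:23889573-23890958), had normalized counts of 11145, 11130.5, 10942 and 12779.9 in *Lhx6* controls 1 to 4. In *Lhx6* mutants 1, 2, 3, 5 and 6 it had 1291, 1401, 1696, 1369.8 and 1180.0 normalized counts. No mutant came near the controls, and the mutant libraries held 10.3% to 14.7% of the control mean. This is a log2 fold change of -3.06, with a standard error of 0.13 and an adjusted p of 9.01e-08 by limma. *Npy*, the precursor of neuropeptide Y (ENSMUSG00000029819.6, chr6:49822710-49829507), had normalized counts of 4427, 4417, 4591 and 4862 in the controls and 2148, 1334, 1139, 2213 and 1041 in the mutants. All mutants lay below all controls, and mutants 1 and 5, at 47.0% and 48.4% of the control mean, stood above mutants 2, 3 and 6, at 29.2%, 24.9% and 22.8%. By limma the log2 difference came to -1.61 (standard error 0.22) at an adjusted p of 0.00153. In bulk RNA, fewer cells that express a gene and less RNA per cell cannot be told apart.

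The mutants varied more in *Npy* than in *Sst*. The coefficient of variation over mutants was 35.7% for *Npy* and 13.9% for *Sst*, where counting error alone gives 2.58% and 2.72%. In the controls it was 4.54% and 7.47%. Of the 6 peptide genes tested, limma called these 2 lower and 0 higher, where 0.682% of all 16727 genes tested were called lower and 1.03% higher. Both calls held under all 20 alternatives that gave an adjusted p. The undated mutant 6 alone differed from the undated controls by -3.28 for *Sst* and -2.13 for *Npy* on the log2 scale, both larger than the pooled values. Mutant 6 also had the lowest sum of the MGE markers other than *Lhx6*, the targeted gene, at 31171 normalized counts against 38617 to 52972 in the other mutants and 32772 to 43378 in the controls, so that it lay just below the lowest control. Its 9 markers of cycling progenitors and radial glia summed to 18935, against 8274 to 12942 in the other mutants and 10042 to 12082 in the controls. The part of these cells in its peptide values was not tested.

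The remaining peptides did not pass limma's threshold, although in 2 of them all mutants lay below all controls, as they did in 3.03% of all genes tested, with 3.19% on the higher side. *Cort* encodes cortistatin, a relative of somatostatin that binds somatostatin receptors (ENSMUSG00000028971.4, chr4:149125034-149126763). Its normalized counts were 27.9, 67.4, 36.8 and 29.9 in *Lhx6* controls 1 to 4 and 0, 7.40, 1.86, 9.69 and 17.3 in *Lhx6* mutants 1, 2, 3, 5 and 6, which rest on 180 reads in the controls and 34 in the mutants. The highest mutant thus lay below the lowest control, and mutants 1 and 3, with 0 and 2 reads, lie under a floor of 3 reads. On the log2 scale limma put the difference at -2.84 (standard error 0.81, adjusted p = 0.125), and an exact permutation test of the log2 values gave p = 0.0159. *Cort* passed with a pseudocount of 10 (-1.58, adjusted p = 0.0446 from limma) and with DESeq2 (-2.49, adjusted p = 0.0311), which called 1.54% of all genes lower and 2.98% higher, in a range of adjusted p from 0.0311 to 0.99998 over 19 alternatives. The undated mutant 6 differed from the controls by -1.09.

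*Cck* (ENSMUSG00000032532.7, chr9:121489824-121495694) was the least variable peptide among *Lhx6* controls, at 434, 442, 449 and 464 normalized counts, a coefficient of variation of 2.91% where counting error gives 4.49%. The mutants had 287, 215, 238, 381 and 194 normalized counts, all below the controls. In the limma fit the difference was -0.80 on the log2 scale with a standard error of 0.20 (adjusted p = 0.0781), and the exact permutation test of the log2 values gave p = 0.0159. DESeq2 called it (-0.77, adjusted p = 0.0138), and limma called it without mutant 5, the highest mutant (-0.95, adjusted p = 0.0311), in a range from 0.0138 to 0.414. Mutants 5 and 1 were the highest of the mutants for *Cck* as they were for *Npy*, and mutant 6 the lowest for both. Pyramidal neurons also make *Cck*, and the summed normalized counts of their 12 markers were 17052 to 22584 in the controls and 13493 to 18423 in the mutants, with 8 of 12 below 0 and 0 called. The cells were sorted for YFP in the Nkx2-1-Cre lineage, and markers of pyramidal neurons were present. Whether pyramidal neurons have a part in the *Cck* values was not tested.

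*Tac1*, the precursor of substance P (ENSMUSG00000061762.12, chr6:7554879-7565834), was low in 4 *Lhx6* mutants and high in the fifth. Its normalized counts were 49.0, 79.8, 53.4 and 114.6 in controls 1 to 4 and 0, 122.2, 0, 2.91 and 8.67 in mutants 1, 2, 3, 5 and 6. Mutant 2, with 132 reads, stood above every control, and the other mutants had at most 7 reads each. This is a log2 fold change of -3.71, with a standard error of 1.18 and an adjusted p of 0.176 by limma, in a range from 0.0104 to 0.99998 over the alternatives. The size of the difference depended on the setting: it was -1.44 with edgeR (adjusted p = 0.630), -1.47 with DESeq2 (adjusted p = 0.732) and -2.01 with a pseudocount of 10 (adjusted p = 0.172 from limma), and without mutant 2 it was -4.84 (adjusted p = 0.0104 from limma). *Isl1*, a transcription factor of striatal and cholinergic neurons, had 961.7 normalized counts in mutant 2 and 16.1 to 34.9 in the other mutants. The 9 of 10 striatal markers that are listed summed to 1603 normalized counts in mutant 2, of which *Isl1* supplied the larger part, with *Drd2* not listed. Without *Isl1*, the 8 others summed to 641 in mutant 2, to 406 to 654 in the other mutants and to 322 to 434 in the controls, which puts mutant 2 within the range of the other mutants. The 3 of 6 cholinergic and pallidal markers that are listed, *Chat* and *Slc18a3* not among them, summed to 147 in mutant 2, to 26.08 to 53.2 in the other mutants and to 5.53 to 29.2 in the controls, so that mutant 2 had the highest value there. *Isl1* also had 214 normalized counts in control 1, whose *Tac1* value was the lowest of the controls. The cells came from dissected cortex and were sorted for YFP in the Nkx2-1-Cre lineage. The part of striatal or cholinergic cells in the *Tac1* values was not tested.

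**Figure D2:**
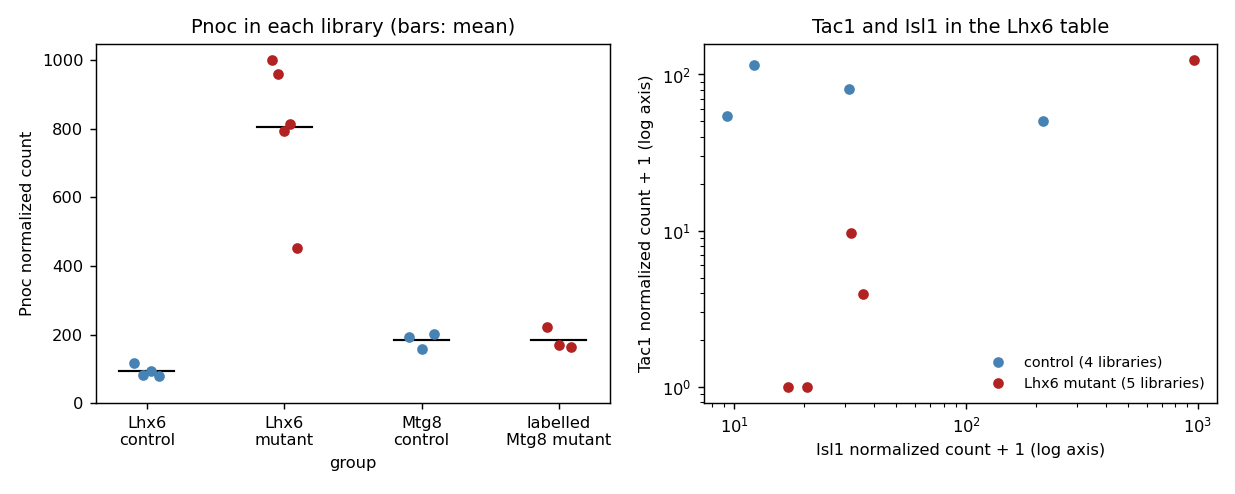
Left, *Pnoc* normalized counts in each library of the 4 groups, with bars at the group means; the 5 *Lhx6* mutants sit between 453 and 1001, above every other library. Right, *Tac1* against *Isl1*, both as normalized count plus 1 on log axes, in the 9 libraries of the *Lhx6* table; mutant 2 is the red point at the upper right, with 122.2 for *Tac1* and 961.7 for *Isl1*.

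*Penk*, the precursor of the enkephalins (ENSMUSG00000045573.9, chr4:4133531-4138819), did not separate the groups. Its normalized counts were 9.61, 24.8, 15.7 and 7.70 in *Lhx6* controls and 0, 24.1, 54.0, 27.1 and 14.9 in *Lhx6* mutants 1, 2, 3, 5 and 6, so that both the lowest and the highest library were mutants. By limma the log2 difference came to 0.03 (standard error 0.99) at an adjusted p of 0.993, and its sign turned under several alternatives. *Pdyn*, the precursor of the dynorphins (chr2:129686565-129699844), was below the minimum mean, and 15 of its 18 control reads came from control 2 and all 23 mutant reads from mutant 5. *Crh*, corticotropin-releasing hormone (chr3:19693401-19695396), was also below it, with 6 and 13 reads in controls 1 and 4, 4 reads in mutant 5, 1 in mutant 6 and 0 in the other libraries. Exact permutation tests of normalized counts gave p = 1 for *Pdyn* and p = 0.286 for *Crh*. Of the 6 tested peptide genes 5 had a log2 fold change below 0, with a median of -2.23, where 53.4% of all genes were below 0 and the median of all genes was -0.04.

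**Figure D3:**
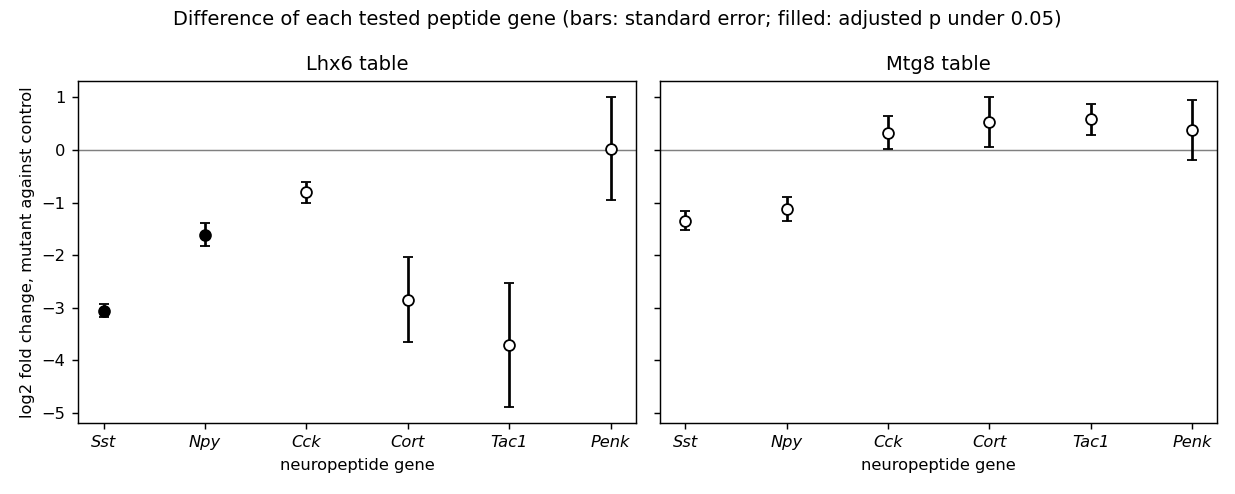
Points are log2 fold changes of mutant against control on log2(normalized count + 1), bars are standard errors, and filled points have an adjusted p under 0.05 from limma, with the *Lhx6* table on the left and the *Mtg8* table on the right. *Sst* (-3.06) and *Npy* (-1.61) are filled on the left, none is filled on the right, and the 4 other genes there lie above 0.

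The ratio of 2 genes within a library hardly depends on the size factor and gives the comparison of *Sst* and *Npy* with the other peptides. It was taken as the log2 ratio of normalized counts plus 1, with no correction for length, which nearly cancels in the difference between groups. There were 9 pairs in each table, and p-values are unadjusted. In *Lhx6* controls *Sst* had 2.38 to 2.63 times the normalized count of *Npy*, whereas the ratios in *Lhx6* mutants 1, 2, 3, 5 and 6 were 0.601, 1.05, 1.49, 0.619 and 1.13. *Npy* thus exceeded *Sst* in mutants 1 and 5, and the *Sst* to *Npy* log2 ratio was lower by 1.45 in the mutants, with no overlap (exact permutation test, two-sided, p = 0.0159). Per kilobase, the share of *Npy* among the summed peptide levels was 33.1% ± 0.872 (SD, n = 4) in the controls and 55.0% ± 9.17 (SD, n = 5) in the mutants, and that of *Sst* was 65.1% ± 0.915 and 40.1% ± 9.01.

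Both genes were lower relative to *Cck*, as they were relative to most genes: all mutants lay below all controls in the log2 ratio of *Sst* to 91.1% of the other genes tested and in that of *Npy* to 67.6%. The log2 ratio differed by -2.25 for *Sst* to *Cck* and by -0.80 for *Npy* to *Cck*, with no overlap in either (exact permutation test, p = 0.00794 each, the smallest that 4 libraries against 5 allow). *Sst* to *Cort* differed by -0.21 (p = 0.825 from the exact permutation test) with a pseudocount of 1 and by -1.47 (p = 0.0159 from the same test) with one of 10, and at a pseudocount of 1 the log2 ratio ran from 7.35 to 8.69 in controls and from 6.01 to 10.3 in mutants. *Sst* to *Penk* differed by -3.08 with overlapping groups (exact permutation test, p = 0.0397), and in 8 of the 9 fits without 1 library its p rose above the threshold, up to 0.143. For *Sst* to *Tac1* (0.66, p = 0.738), *Npy* to *Cort* (1.23, p = 0.270), *Npy* to *Tac1* (2.10, p = 0.198) and *Npy* to *Penk* (-1.64, p = 0.262), the exact permutation test was past the threshold in none. With a pseudocount of 10 *Npy* to *Penk* passed it (-1.90, exact p = 0.0397), and with 1 library left out so did *Npy* to *Cort* (1.80 without mutant 6), *Npy* to *Tac1* (3.27 without mutant 2) and *Npy* to *Penk* (-2.73 without mutant 1), each at an exact p of 0.0286. The sign of the ratios to *Cort* and of *Sst* to *Tac1* depended on the setting.

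**Figure D4:**
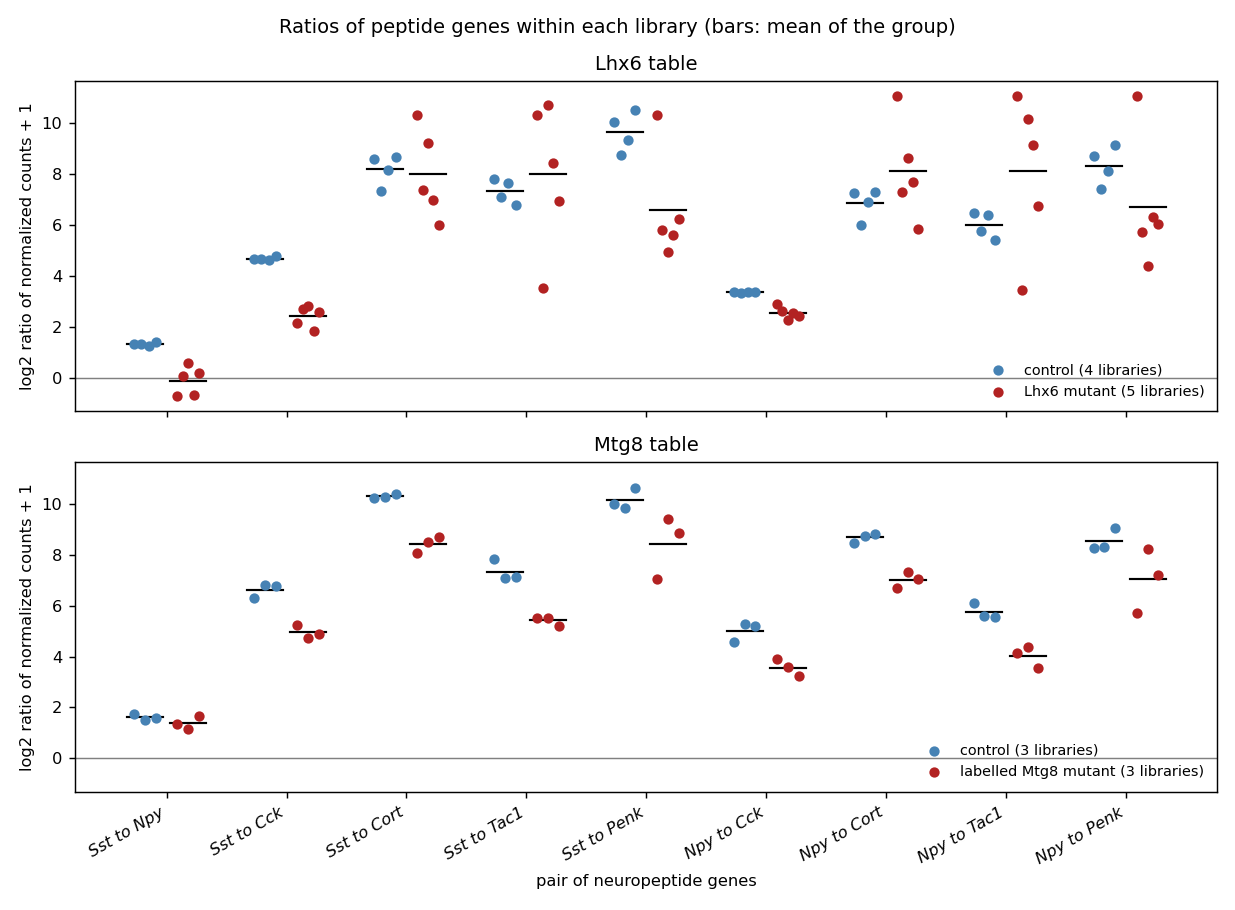
Each point is the log2 ratio of 2 genes' normalized counts plus 1 in 1 library, for 9 pairs of genes, blue for controls and red for mutants, with bars at the group means, the *Lhx6* table above (4 controls, 5 mutants) and the *Mtg8* table below (3 controls, 3 labelled mutants). In the *Lhx6* table *Sst* to *Npy*, *Sst* to *Cck* and *Npy* to *Cck* are separate, and in the *Mtg8* table all pairs but *Sst* to *Npy* are separate.

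In the libraries labelled *Mtg8* mutant, *Sst* and *Npy* were the 2 peptide genes with values below the controls, and the 4 other tested peptides had mean values above them. limma called 0 of the 6 lower and 0 higher, as it did among all 16132 genes tested (0% called, 886 genes at an unadjusted p under 0.05, 31 called by DESeq2 and 1 by edgeR). *Sst* had normalized counts of 17164, 14420.5 and 18501 in controls 1, 2 and 4 and of 5683, 8048 and 6115 in labelled mutants 2, 3 and 4, with no overlap. On the log2 scale limma put the difference at -1.34 (standard error 0.19, adjusted p = 0.0713). *Npy* had 5151, 5037 and 6247 normalized counts in the controls and 2219, 3577 and 1952 in the labelled mutants, again with no overlap, as in 5.52% of all genes on the lower side. In the limma fit the difference was -1.13 on the log2 scale with a standard error of 0.23 (adjusted p = 0.580). DESeq2, which called 0.062% of all genes lower and 0.13% higher, called both (*Sst* -1.33, adjusted p = 6.76e-06, and *Npy* -1.08, adjusted p = 0.0229), in ranges of adjusted p from 6.76e-06 to 0.657 for *Sst* and from 5.4e-05 to 0.999 for *Npy*. Among dated libraries alone *Sst* differed by -1.47 and *Npy* by -1.20, and among undated ones by -1.40 and -1.24, where 1 group has a single library. Labelled mutant 3 had the highest value of both genes among the labelled mutants.

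Summed cell type markers also stood at other levels in the labelled mutants, with 0 genes called in each list. The MGE markers summed to 65243 to 65762 normalized counts in the controls and to 45970.2, 42718 and 62295 in labelled mutants 2, 3 and 4, with 12 of 15 below 0. The 9 markers of cycling progenitors and radial glia summed to 6810.3 to 8567 normalized counts in the controls and 9534 to 13547 in the labelled mutants, with 9 of 9 above 0. All 12 pyramidal markers were above 0, with overlapping sums of 5882 to 14354 and 9242 to 23111. The part of these cells in the values of *Sst* and *Npy* was not tested.

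*Cort* had 13.4, 10.7 and 12.7 normalized counts in the *Mtg8* controls and 20.4, 21.1 and 13.8 in the labelled mutants, on 35 and 59 reads, so the labelled mutants lay just above the controls, as in 4.68% of all genes. This is a log2 fold change of 0.53, with a standard error of 0.48 and an adjusted p of 0.895 by limma. *Tac1* had 74.9, 104.5 and 133 normalized counts in the controls and 123, 173 and 164 in the labelled mutants, which overlapped. By limma the log2 difference came to 0.58 (standard error 0.30) at an adjusted p of 0.859, and the 9 striatal markers listed summed to 235 to 334 normalized counts in the controls and 319 to 513 in the labelled mutants. *Cck* had 217, 129 and 168 normalized counts in the controls and 148, 300.5 and 209 in the labelled mutants, also with overlap (log2 fold change 0.33, standard error 0.31, adjusted p = 0.900 from limma). Among the peptides, *Penk* was high in 1 library, with 15.6, 14.9 and 10.8 normalized counts in the controls against 41.9, 11.03 and 12.2 in labelled mutants 2, 3 and 4 (log2 fold change 0.38, standard error 0.58, adjusted p = 0.943 from limma). *Pdyn* had 2, 0 and 10 reads in the controls and 15, 13 and 0 in the labelled mutants. *Nts*, the precursor of neurotensin (chr10:102481756-102490486), had 1 read in control 4, 5 reads in labelled mutant 4 and 0 in the other libraries. Of the 6 tested peptide genes, 2 had a log2 fold change below 0, where 51.5% of all genes did, and their median was 0.35.

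The ratios of *Sst* and *Npy* to the 4 other peptides were also lower in the labelled mutants of this table. *Sst* differed by -1.88 from *Cort*, -1.92 from *Tac1*, -1.72 from *Penk* and -1.67 from *Cck* on the log2 scale. For *Npy* the differences were -1.66, -1.71, -1.51 and -1.45 in the same order. All 8 had groups that did not overlap and an exact permutation p of 0.1, the smallest the design allows, where the groups did not overlap in the same direction for 83.4% of all ratios of *Sst* to another gene and 67.7% of those of *Npy*. Without labelled mutant 2, the library with the high *Penk* value, *Sst* to *Penk* differed by -1.03 and *Npy* to *Penk* by -0.83, and the *Npy* to *Penk* log2 ratio of labelled mutant 3, 8.22, lay close to that of control 1, 8.27. The *Sst* to *Npy* ratio was 3.33, 2.86 and 2.96 in controls 1, 2 and 4 and 2.56, 2.25 and 3.13 in labelled mutants 2, 3 and 4, which overlapped, and its log2 difference was -0.22 (exact permutation test, p = 0.3). Whether the ratio moved differently in the 2 tables was not tested.

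Among 44 further neuropeptide precursors, 26 were listed and 6 were tested in the *Lhx6* comparison. Of these 6, limma called 2 higher and 0 lower in *Lhx6* mutants, against 1.03% and 0.682% of all genes tested. Precursors below the minimum mean could not be called, and low values in either group can bring a gene under it. *Nppc*, below it, had 10.6 to 22.2 normalized counts in the controls and 0 to 3.71 in the mutants. *Pnoc*, which encodes prepronociceptin, had normalized counts of 116, 82.4, 94.0 and 80.4 in controls 1 to 4 and of 1001, 959, 793, 815 and 453 in mutants 1, 2, 3, 5 and 6. Every mutant was several-fold above every control, and limma put the log2 difference at 3.06 (standard error 0.24, adjusted p = 1.63e-05), of the same size as that of *Sst* with the opposite sign. The undated mutant 6 had the lowest *Pnoc* value of the mutants and still lay above all controls. *Prok2*, which encodes prokineticin 2, rose from 31.3 ± 10.1 (SD, n = 4) to 102 ± 29.8 normalized counts (SD, n = 5), with a log2 fold change of 1.67 (adjusted p = 0.0164 from limma). The median of the 6 was 0.23. Markers of other cell types moved in some of the same libraries. The 6 markers of CGE interneurons summed to 2543 to 3194 normalized counts in the controls and to 6704, 4564, 2892, 4399 and 3708 in mutants 1, 2, 3, 5 and 6, with *Nr2f2* above all controls in every mutant (adjusted p = 0.0676 from limma) and *Htr3a* called lower (-1.65, adjusted p = 0.0451 from limma). The summed cholinergic and pallidal markers, given beside *Tac1*, overlapped between the groups only through mutant 3. The cells were sorted for YFP in the Nkx2-1-Cre lineage. The part of these marker genes' cells in the *Pnoc* and *Prok2* values was not tested. Of the same precursors 8 were tested and 0 called in the *Mtg8* comparison, with a median of 0.09, and *Pnoc* stood at 184 ± 22.9 and 185 ± 32.0 normalized counts (SD, n = 3 each).

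Genes that process and release peptides differed in both directions. Of 22 listed genes 21 were tested in the *Lhx6* table, 2 were called lower and 3 higher, against 0.682% and 1.03% of all genes tested, and the median log2 fold change was -0.02. *Pcsk2*, a convertase that cuts peptide precursors, had 141, 144, 170.4 and 118 normalized counts in controls and 45.8, 39.8, 48.4, 60.1 and 45.8 in mutants, with a log2 fold change of -1.56 (adjusted p = 0.00462 from limma). *Rph3a*, encoding the vesicle protein rabphilin, fell by 2.06 on the log2 scale (adjusted p = 0.000294 from limma). *Resp18*, a secretory granule protein gene, rose by 1.17 (adjusted p = 0.0367), *Qpct*, whose enzyme forms the pyroglutamate end of some peptides, by 0.83 (adjusted p = 0.0473) and *Syt4*, a synaptotagmin gene, by 0.77 (adjusted p = 0.0187), all from limma. Of 25 receptor genes for the 10 peptides, 11 were tested and 0 called in *Lhx6* mutants, with a median of -0.25. *Sstr2*, a somatostatin receptor, stood at 758 ± 145 normalized counts in the controls and 647 ± 174 in the mutants, and *Npy2r*, a neuropeptide Y receptor, at 362 ± 90.4 and 114 ± 98.5 with overlap (SD, n = 4 and n = 5; log2 fold change -2.09, adjusted p = 0.0982 from limma). *Sstr1*, another somatostatin receptor, was the one tested receptor whose groups did not overlap, as on the lower side in 3.03% of all genes, with 47.6 ± 24.9 and 10.02 ± 8.64 normalized counts (log2 fold change -2.61, adjusted p = 0.171 from limma). There were 20 processing genes and 10 receptor genes tested and 0 called in the *Mtg8* comparison, with medians of -0.05 and -0.06. There *Npy2r* (987 ± 211 and 370 ± 85.7 normalized counts) and *Sstr1* (70.6 ± 6.11 and 43.5 ± 8.75) lay below all controls in every labelled mutant and *Sstr2* (475 ± 199 and 844 ± 227) above them (SD, n = 3 each), with adjusted p of 0.351, 0.859 and 0.859 from limma, where 5.52% of all genes did not overlap on the lower side and 4.68% on the higher.

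The 3 genes most like *Sst* over the 15 libraries and the 3 most like *Npy* had none in common. Likeness was the root mean square difference in log2(normalized count + 1), each gene set relative to its control mean in the same table, among 15629 genes tested in both. *Thbs1*, which encodes thrombospondin 1, was nearest to *Sst* at 0.35, followed by *Nxph2*, a neurexophilin gene, at 0.46 and *Syndig1*, a synapse gene, at 0.51, while *Npy* ranked 27 at 0.90. *Satb1*, a chromatin organizer of MGE interneurons, was nearest to *Npy* at 0.35, followed by *Fstl5* at 0.40 and *Pcsk2* at 0.45, and *Sst* ranked far lower, at 0.90. The log2 fold change of *Satb1* was -1.56 in the *Lhx6* comparison and -0.61 in the *Mtg8* comparison, a description with no test, since the choice of genes by likeness used the same libraries.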

How the data were processed

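The authors trimmed reads with fastp 0.20.1, aligned them to GRCm38.p6 (STAR 2.7b), assigned them to genes (featureCounts 1.6.4) and removed sex-linked genes. Whether counting used strand is not given in the sources used here, and no other gene's exons overlap those of the listed peptide genes. The signal the authors deposited is the count divided by DESeq2's size factor, with each table normalized on its own. The authors' comparison columns, which hold DESeq2's fold changes and p-values, were not used. Values were whole multiples of 1 read (100% within a tolerance of 0.01), so reads were recovered for count tests. Reads carry no molecular identifiers, so floors of 3 reads cover counting error only.

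Genes whose mean over libraries reached 10 were tested by limma-trend (limma 3.58.1 under R 4.3.3) on the log2 of normalized count + 1, two-sided, with Benjamini-Hochberg adjustment over all genes and a threshold of 0.05. Fold changes are on that scale, on which low genes can come out smaller or larger than in count models. The study's methods name DESeq2, run here as an alternative because the values are normalized. Each embryo is a replicate. Groups came from the sample labels. Low genes and ratios were given exact two-sided permutation tests, which cannot go below 0.00794 with 4 and 5 libraries or below 0.1 with 3 and 3. The members and lists were chosen with earlier results of these data known. Named genes are all members, the targeted genes and called genes of each list (up to 4 in each direction). The 3 genes most like *Sst* and the 3 most like *Npy* are also named. Receptors, marker genes and *Nppc*, named beside results, were chosen after their values were seen. Motifs were also chosen after the data were seen, and sequences are from RefSeq.

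Other settings tried were a pseudocount of 0.5 or of 10, a minimum mean of 50 or no minimum, scaling by TMM or to equal totals, no trend, edgeR 4.0.16, DESeq2 1.42.0, a replicate block, name style as a covariate, name styles alone and each library left out. The fits were tested on simulated data.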

Additional observations from a re-analysis of the deposited data

Results flagged for a closer look

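In 34 groups of 4 or 5 libraries, 1 library stood far from the rest in 6. Chance gives about 1 in 20 groups for normal, independent values, but these groups share libraries and genes, so the 6 are not independent. *Sst* in *Lhx6* control 4 was 12779.9 normalized counts, with the next control at 11145. *Tac1* in *Lhx6* mutant 2 was 122.2 normalized counts, with the next mutant at 8.67. *Pdyn* in *Lhx6* control 2 was 13.3 normalized counts, with the next control at 1.92, and in *Lhx6* mutant 5 it was 22.3, with the other mutants at 0. In *Lhx6* mutant 1, which had 0 reads of *Penk*, the *Sst* to *Penk* log2 ratio was 10.3 and the *Npy* to *Penk* log2 ratio was 11.1, with the next mutants at 6.22 and 6.30.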

How the results depend on the processing

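*Sst* and *Npy* were called lower in *Lhx6* mutants under all 20 alternatives with an adjusted p; with each library left out their log2 fold changes ranged from -3.13 to -3.00 and from -1.75 to -1.48, and within undated libraries they were -3.28 and -2.13. In the *Lhx6* comparison, 286 genes were called, against 756 with DESeq2, 57 with name style as a covariate and 159 to 491 with each library left out (159 without control 1, 491 without mutant 6). In the *Mtg8* comparison, 0 were called, against 1 with no filter, 2 at a minimum mean of 50, 1 with edgeR, 31 with DESeq2 and 0 to 86 with each library left out (86 without labelled mutant 2). *Sst* passed there at a minimum mean of 50 (-1.34, adjusted p = 0.0493), with DESeq2 (-1.33) and without labelled mutant 2 (-1.24, adjusted p = 0.0262), in a range from -1.49 to -1.24 with each library left out, and *Npy* passed with DESeq2 (-1.08). The replicate numbers do not pair embryos by the labels; deviations of same-numbered libraries correlated at -0.154, 0.00175 and 0.0717 for *Lhx6* and at 0.138 and 0.159 for *Mtg8*. A replicate block gave 86 calls for *Lhx6* and 100 for *Mtg8*, where *Sst* (-1.47, adjusted p = 0.000162 from limma) and *Npy* (-1.43, adjusted p = 5.4e-05 from limma) passed on 2 pairs. *Penk* turned sign in the *Lhx6* table with a pseudocount of 0.5 (-0.14), equal library totals (-0.014), the replicate block (-0.58) and libraries left out (-0.46 to 0.99), and in the *Mtg8* table without labelled mutant 2 (-0.21, in a range from -0.21 to 0.71). *Cck* turned sign among dated *Mtg8* libraries (-0.17). Among *Lhx6* ratios, *Sst* to *Tac1* turned sign with a pseudocount of 10 (-1.04), in undated libraries (-0.40) and without mutant 3 (-0.029, in a range from -0.029 to 1.78), *Npy* to *Cort* with a pseudocount of 10 (-0.024) and in undated libraries (-1.04), and *Sst* to *Cort* without mutant 5 (0.03) or mutant 6 (0.28, in a range from -0.80 to 0.28). *Sst* to *Cort* (-1.47) and *Npy* to *Penk* (-1.90) passed the exact test with a pseudocount of 10. The causes were not tested. Embryo numbers limit precision, and with few reads *Cort*, *Penk*, *Pdyn*, *Crh* and *Nts* are also limited by depth.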
